A study of Mus musculus with 2 samples.

Results

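The genes described are the 3 E proteins Tcf3, Tcf4 and Tcf12 and the 3 Id inhibitors Id1, Id2 and Id3. They were found by gene symbol, 6 of 27998 genes in the count matrix, each in a single row. RNA was read from single thymus cells of C57BL/6 mice of the genotype Bcl11byfp/yfp, in which expression of Bcl11b, needed for commitment to the T lineage, can be read as fluorescence. All 5 sorted populations came from such mice and were lineage negative, 7AAD negative (viable) and Kit+. The 4 gated sorts were also CD25- and Bcl11b-, and were named by the further gates Flt3- Ly6d+ (847 cells), Flt3- Ly6d- HSA- (1205 cells), Flt3+ HSA+ (1182 cells) and Flt3+ Ly6d- HSA- (1412 cells). Ly6d+ cells were not gated on HSA, the CD24 antigen. The control (3302 cells) was gated on no further marker, so it could hold the stages of the gated sorts and others. How many mice were used was not given in the sources used here.

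E proteins are transcription factors of the basic helix-loop-helix family. They bind DNA as dimers at short motifs called E boxes, and in the thymus they drive genes of T-cell receptor assembly and restrain other fates. Tcf3 encodes E2A (the E12 and E47 proteins), Tcf4 encodes E2-2, best known for plasmacytoid dendritic cells, and Tcf12 encodes HEB, a main partner of E2A in thymocytes. Id proteins have the helix-loop-helix but no DNA-binding region, so they pair with E proteins and keep them off DNA. Id2 is known for innate lymphoid and NK cells, Id3 for thymocytes that have received signals through the pre-T-cell or T-cell receptor, and Id1 for stem and myeloid progenitor cells.

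Every population was sorted a single time and all went into 1 cDNA library, told apart by hashtag antibodies. Differences between populations therefore have no replicate check and no test was run. Values are unique molecular identifiers (UMIs, counted cDNA molecules) summed over the cells of a population, divided by all UMIs of that population and multiplied by 1000000 (CPM). Intervals in parentheses are 95% intervals, exact Poisson for CPM, exact Clopper-Pearson for shares and binomial for ratios, and cover counting error only. Summed depth was 10616041 to 57199129 UMIs per population, and median depth was 9860 to 21152 UMIs per cell. A ratio was called when it was at least 1.5 with at least 5 CPM in the higher group. Genes at 5 CPM or more in either group were the genes measured. A gene that reaches the floor in a single group can be called only as higher in that group, in the gene lists as well. Tcf3, Tcf4, Tcf12 and Id2 passed that floor in every comparison, Id3 in 1 only, and Id1 in none.

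Markers of other cell types were present. Cells with a UMI of at least 7 of 14 granulocyte markers, called the granulocyte class here, numbered 0 of the Flt3- Ly6d+, 100 of the Flt3- Ly6d- HSA-, 28 of the Flt3+ HSA+, 65 of the Flt3+ Ly6d- HSA- and 46 of the control cells. The summed level of the 14 markers was 495 to 4591 CPM in the gated sorts and 1128 CPM in the control. Mitotic cells, holding 5 or more UMIs of a list of G2/M genes when thinned to 3000 UMIs, were 5.69% to 51.0% of the gated sorts and 28.6% of the control. Summed levels of the B cell markers were 41.0 to 58.6 CPM in the 5 populations, with Pax5 at 0 UMIs in 4 of them. Dendritic markers summed to 311 to 402 CPM, NK and innate lymphoid markers to 363 to 488 CPM, and mast cell and basophil markers to 33.2 to 375 CPM. Erythroid and megakaryocyte markers summed to 30.1 to 576 CPM. Single genes gave most of each, in that order: Bst2 203 to 272 CPM, Nkg7 338 to 461 CPM, Cpa3 22.7 to 358 CPM and Hbb-bt 29.0 to 563 CPM. Siglech stood at 0.0781 to 0.659 CPM, and Hba-a1 and Hba-a2 at 0 UMIs, in the 5 populations. A sum therefore does not by itself show cells of that type. Where 2 erythroid and megakaryocyte markers are counted below, they are Hbb-bt and Itga2b. Of 5 thymic epithelial markers, Psmb11, Foxn1 and Krt5 were at 0 UMIs in all 5 populations. Of the markers the sorts were gated on, Kit RNA stood at 64.9 to 112 CPM in the gated sorts and 78.8 CPM in the control.

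The E box, of which the general form is CANNTG, reads the same on either strand. Upstream stretches are shown because the genes code for factors that bind that motif or keep others from it, and for genes whose levels differed below (Tcf12 and Id2) beside one that varied less (Tcf3). The stretches shown lie before an annotated start, in no exon of the gene in GENCODE M21, and come from RefSeq on GRCm38.p6, with every CANNTG match in capitals. Each is the far part of the 250 bases before that start, cut where an exon is met, so it does not reach the start. On mm10, Tcf3 spans chr10:80409514-80433647 and Tcf12 chr9:71842688-72111871 on the minus strand. Id1 spans chr2:152736251-152737410 and Id3 chr4:136143497-136145755 on the plus strand, and Id2 chr12:25093799-25097140 on the minus strand. Stretches of 3 genes are shown, and none of Tcf4, Id1 or Id3. The outer Tcf12 stretch (chr9:72111872-72112069, minus strand) has 198 bases and lies before the outermost start, and the inner one (chr9:72111203-72111451, minus strand) lies before an inner start. The Tcf3 stretch (chr10:80433648-80433885, minus strand) has 238 bases, and the Id2 stretch (chr12:25096254-25096342, minus strand) has 89 and lies before an inner start, within the span of the gene.
Tcf12, outer: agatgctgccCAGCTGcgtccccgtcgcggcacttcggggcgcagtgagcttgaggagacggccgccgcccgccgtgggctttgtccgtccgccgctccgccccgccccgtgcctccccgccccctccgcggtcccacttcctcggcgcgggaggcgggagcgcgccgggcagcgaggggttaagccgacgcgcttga
Tcf12, inner: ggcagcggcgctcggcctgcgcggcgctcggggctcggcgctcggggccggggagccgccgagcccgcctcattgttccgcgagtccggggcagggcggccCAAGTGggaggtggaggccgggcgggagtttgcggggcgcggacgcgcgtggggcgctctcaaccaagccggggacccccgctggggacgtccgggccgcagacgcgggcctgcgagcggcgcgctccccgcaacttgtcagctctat
Tcf3: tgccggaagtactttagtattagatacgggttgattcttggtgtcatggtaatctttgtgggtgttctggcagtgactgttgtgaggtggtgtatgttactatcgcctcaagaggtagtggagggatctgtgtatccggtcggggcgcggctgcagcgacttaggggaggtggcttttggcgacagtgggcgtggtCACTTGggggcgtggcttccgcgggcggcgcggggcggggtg
Id2: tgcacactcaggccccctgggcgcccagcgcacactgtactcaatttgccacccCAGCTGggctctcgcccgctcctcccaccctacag
Each stretch held 1 match. It was CAGCTG in the outer Tcf12 stretch and in the Id2 stretch, CACTTG in the Tcf3 stretch, and CAAGTG, its form on the other strand, in the inner Tcf12 stretch. Of 32851 upstream sequences read over the same positions before their starts, 58.7% held a CANNTG and 10.2% a CAGCTG at the outer Tcf12 length. At the inner Tcf12 length 66.1% and at the Tcf3 length 64.7% held a CANNTG, and at the Id2 length 33.0% held a CANNTG and 4.23% a CAGCTG. A match describes letters and is no evidence of binding.

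Among the E proteins, Tcf3 and Tcf4 varied little over the populations while Tcf12 separated the gated sorts from the control. Tcf3 stood at 117 CPM (110 to 123) in Flt3- Ly6d+, 97.3 CPM (92.2 to 103) in Flt3- Ly6d- HSA-, 111 CPM (107 to 115) in Flt3+ HSA+ and 102 CPM (98.3 to 106) in Flt3+ Ly6d- HSA- cells, against 129 CPM (126 to 132) in the control. The control was highest for Tcf3 and the Flt3- Ly6d- HSA- sort lowest, with the intervals of Flt3- Ly6d- HSA- and Flt3+ Ly6d- HSA- cells overlapping, as did those of Flt3- Ly6d+ and Flt3+ HSA+ cells. Tcf4 stood at 112 CPM (105 to 118) in Flt3- Ly6d+, 101 CPM (95.3 to 106) in Flt3- Ly6d- HSA-, 99.5 CPM (95.6 to 103) in Flt3+ HSA+ and 102 CPM (97.8 to 106) in Flt3+ Ly6d- HSA- cells, against 89.4 CPM (87.0 to 91.9) in the control. For Tcf4 the control was lowest, and the intervals of the gated sorts overlapped in every pair but Flt3- Ly6d+ with Flt3+ HSA+. The gene, with 46 coding transcripts in the annotation, spans chr18:69343356-69689079 on the plus strand.

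Tcf12 stood at 50.6 CPM (46.4 to 55.0) in Flt3- Ly6d+, 44.9 CPM (41.5 to 48.6) in Flt3- Ly6d- HSA-, 38.5 CPM (36.1 to 41.0) in Flt3+ HSA+ and 38.9 CPM (36.5 to 41.5) in Flt3+ Ly6d- HSA- cells, against 82.7 CPM (80.3 to 85.0) in the control. No gated sort came near the control. Both Flt3- sorts lay above the Flt3+ HSA+ sort, while both Flt3+ sorts overlapped each other. With every cell thinned to 3000 UMIs, a Tcf12 UMI was found in 14.9%, 14.4%, 10.8% and 12.5% of the cells of the gated sorts in the same order and in 21.4% of control cells. Counts come from the 3' end, so transcripts of Tcf12 that start at different sites were summed: its 11 coding transcripts in the annotation have 11 starts. Of 11 annotated genes that overlap Tcf12, 0 are rows of the matrix.

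**Figure D1:**
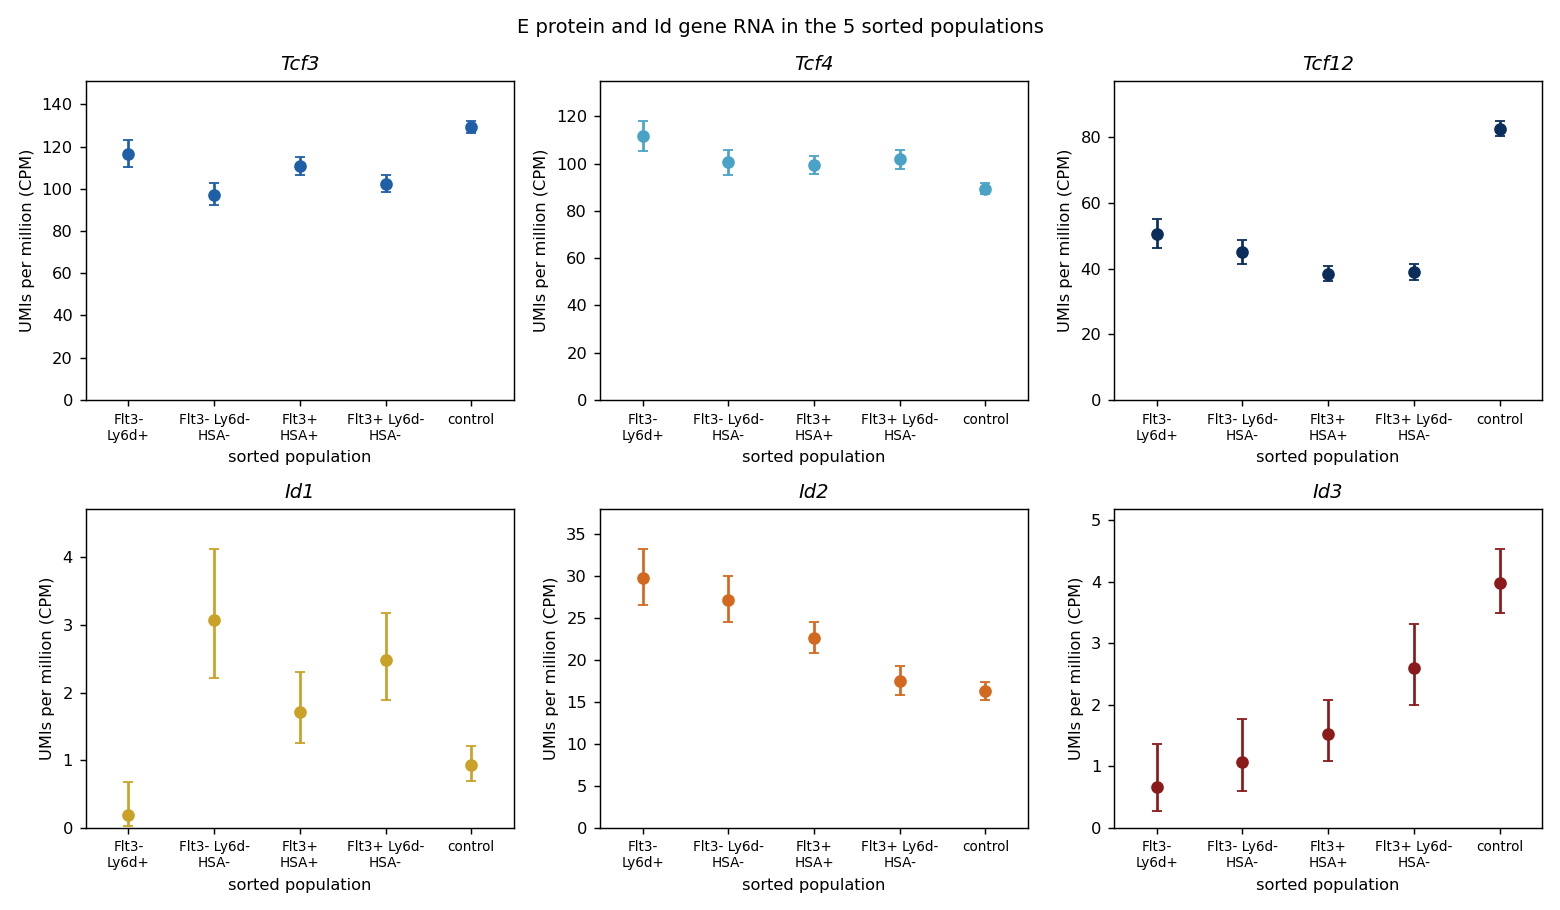
CPM of each gene in the 5 sorted populations with 95% Poisson intervals (counting error only), each panel on its own axis from 0. Tcf12 sits at 38.5 to 50.6 CPM in the gated sorts and at 82.7 CPM in the control, and Id2 at 17.5 to 29.8 CPM in the gated sorts and 16.2 CPM in the control.

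Of the Id genes, Id2 was the abundant member, with 2632 UMIs over the 5 populations against 353 of Id3 and 203 of Id1. Id2 stood at 29.8 CPM (26.6 to 33.2) in Flt3- Ly6d+, 27.1 CPM (24.5 to 30.0) in Flt3- Ly6d- HSA-, 22.6 CPM (20.8 to 24.5) in Flt3+ HSA+ and 17.5 CPM (15.9 to 19.2) in Flt3+ Ly6d- HSA- cells, against 16.2 CPM (15.2 to 17.3) in the control. Both Flt3- sorts were highest in CPM and overlapped each other, and the Flt3+ Ly6d- HSA- sort overlapped the control. The intervals of Flt3- Ly6d- HSA- and Flt3+ HSA+ cells just overlapped (from 24.45 and up to 24.48 CPM). By the share of cells with an Id2 UMI, the order of this pair depended on depth, with overlapping intervals at either depth. Among 10000 UMIs it was 17.8% (15.6 to 20.2) of Flt3+ HSA+ and 15.2% (12.4 to 18.4) of Flt3- Ly6d- HSA- cells. Among 3000 UMIs it was 6.04% (4.7 to 7.6) and 7.59% (6.1 to 9.3) in the same order. Id2 RNA was sparse per cell: among 10000 UMIs an Id2 UMI was found in 19.1%, 15.2%, 17.8% and 13.0% of the cells of the gated sorts in the same order, and in 11.98% of control cells.

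Id3 stood at 0.659 CPM (7 UMIs) in Flt3- Ly6d+, 1.07 CPM (15 UMIs) in Flt3- Ly6d- HSA-, 1.52 CPM (39 UMIs) in Flt3+ HSA+ and 2.60 CPM (64 UMIs) in Flt3+ Ly6d- HSA- cells, against 3.99 CPM (228 UMIs) in the control. Id1 stood at 0.188 CPM (2 UMIs), 3.07 CPM (43 UMIs), 1.72 CPM (44 UMIs) and 2.48 CPM (61 UMIs) in the same sorts, against 0.927 CPM (53 UMIs) in the control. UMIs are counted at the 3' end and do not grow with transcript length. On that scale both levels were far below those of the other 4 genes, and Id4, the remaining Id gene of the mouse, had 0 UMIs in all 5 populations. Among 3000 UMIs, an Id1 UMI was found in 0.0850% to 0.690% of the cells of the gated sorts and 0.123% of control cells, and an Id3 UMI in 0 to 0.641% and 1.17%. RNA of the granulocyte gene Elane was found in 0.633% (0.467 to 0.839) of cells outside the granulocyte class at that depth. S100a8 was found in 0.0792% and the globin gene Hbb-bt in 13.6%. These shares are over the 5 populations together. Elane and S100a8 are among the 14 markers that define the class, so leaving the class out lowers their shares by design. Elane was far more abundant than Id1 or Id3, with 9464 UMIs in Flt3- Ly6d- HSA- cells alone. Its share is therefore a point of comparison and no measure of free Id1 or Id3 RNA. Whether the low shares of Id1 and Id3 are background was not tested. Counted outside the granulocyte class as well, the Id1 share was 0.0871% to 0.522% in the gated sorts and 0.125% in the control, all below that of Elane. In each gated sort the interval of the Id1 share overlaps that of Elane. Outside the class the Id3 share was 1.19% (0.841 to 1.62) in the control, above that of Elane with intervals that do not overlap. It was 0.672% (0.308 to 1.27) in Flt3+ Ly6d- HSA- cells, with an interval that overlaps that of Elane. In the other 3 sorts it was below the share of Elane. Of these, the intervals of Flt3- Ly6d- HSA- (0.283%, 0.0584 to 0.825) and Flt3+ HSA+ cells (0.261%, 0.0539 to 0.762) overlap that of Elane. No Id3 UMI was found in 826 Flt3- Ly6d+ cells at that depth, with an exact interval of 0 to 0.446%.

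As a share of the UMIs of all 6 genes, Id UMIs made up 9.90% (8.90 to 10.97) in Flt3- Ly6d+, 11.4% (10.4 to 12.5) in Flt3- Ly6d- HSA-, 9.40% (8.73 to 10.1) in Flt3+ HSA+ and 8.49% (7.82 to 9.19) in Flt3+ Ly6d- HSA- cells, against 6.56% (6.20 to 6.92) in the control. This share does not depend on scaling to the library total, though genes can differ in how well they are captured. E protein UMIs outnumbered Id UMIs in each population, by 7.77 to 10.8 UMIs per Id UMI in the gated sorts and 14.3 in the control. Summed E protein levels were 243 to 279 CPM in the gated sorts and 301 CPM in the control, and summed Id levels 22.5 to 31.2 CPM and 21.1 CPM. Tcf12 gave 15.5% to 18.5% of E protein UMIs in the gated sorts and 27.4% in the control, while Tcf4 gave 40% to 41.9% in the gated sorts and 29.7% in the control.

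**Figure D2:**
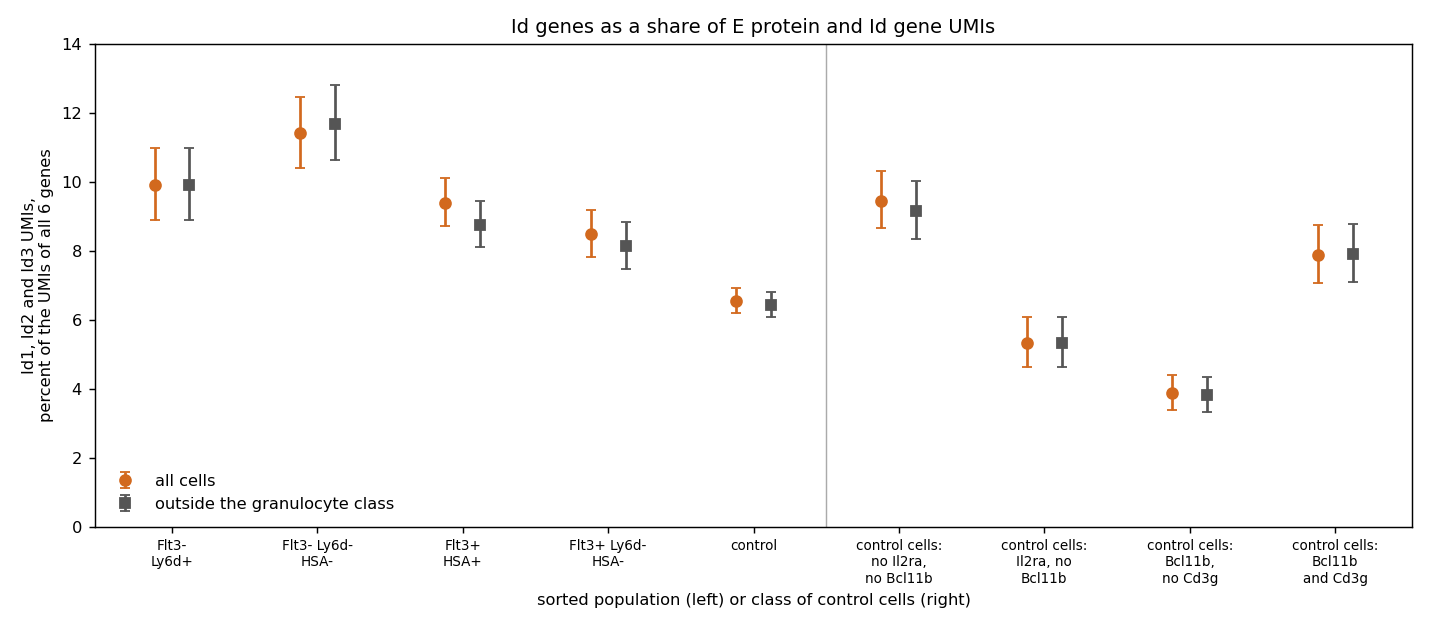
Id1, Id2 and Id3 UMIs as a percent of the UMIs of all 6 genes, in the 5 populations (left of the line) and in 4 classes of control cells (right), with 95% Clopper-Pearson intervals, for all cells (circles) and outside the granulocyte class (squares). The share was 8.49% to 11.4% in the gated sorts and 6.56% in the control, and lowest, at 3.86%, in control cells with Bcl11b but no Cd3g RNA.

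Of the sorts negative for both Ly6d and HSA, the Flt3- one was set against the Flt3+ one, to ask which RNA goes with Flt3, a receptor lost from the surface as progenitors advance. Id2 was 1.55-fold (1.35 to 1.79) higher in Flt3- Ly6d- HSA- cells, and this was the single member called. In this comparison 4.56% of 9210 measured genes were called higher and 4.59% lower. Id2 thus stood among the 3.71% of genes with a ratio at least as high. Tcf12 had a ratio of 1.154 (1.04 to 1.28), Tcf3 of 0.952 (0.890 to 1.02) and Tcf4 of 0.988 (0.925 to 1.05). Id3, under the floor in both sorts, had a ratio of 0.412 (0.218 to 0.731), and Id1 of 1.24 (0.818 to 1.86).

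A few cells held much of the Id2 of the Flt3- Ly6d- HSA- sort. Its 10 cells with most Id2 held 25.5% of the Id2 UMIs, up to 20 in a single cell, against 10.9% in the 10 such cells of Flt3+ Ly6d- HSA- cells. Over the 5 populations 23 cells had 6 or more Id2 UMIs, 7 of them in the Flt3- Ly6d- HSA- sort, and 8 of the 23 held at least 3 markers of another cell type, such as mast cell and basophil (4 cells) or NK and innate lymphoid (3 cells). Without all 23 the Id2 ratio was 1.26, and without all cells with at least 3 markers of another type it was 1.47, both below the 1.5 of the call. The 23 cells were picked by their Id2 count itself, so the value without them is no independent check on the call. Cells of the granulocyte class, by contrast, held 1.58% of the Id2 UMIs of the Flt3- Ly6d- HSA- sort and 4.19% of those of the Flt3+ Ly6d- HSA- sort. Outside that class Id2 stood at 33.4 CPM in Flt3- Ly6d- HSA- and 18.6 CPM in Flt3+ Ly6d- HSA- cells, a ratio of 1.80. The part of these cells in the result was not tested.

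Genes linked to Id2 in innate lymphoid cells were counted beside it. Of 12 listed, 7 were measured, 3 were called higher and 0 lower in Flt3- Ly6d- HSA- cells, with a median log2 ratio of 0.20 against 0.03 for all measured genes. They were Gzmb, a granule protease (27.0-fold, 13.3 to 64.0), Rora, a nuclear receptor of innate lymphoid cells (2.43-fold, 1.73 to 3.41), and Tox, a regulator of T and innate lymphoid development (1.90-fold, 1.75 to 2.07). Markers of other cell types were higher in the same comparison: 4 of 4 measured mast cell and basophil markers (median log2 ratio 2.96), among them Cpa3, a mast cell protease (11.5-fold), and Cma1, a chymase (312 UMIs in Flt3- Ly6d- HSA- and 0 in Flt3+ Ly6d- HSA- cells), 2 of 2 erythroid and megakaryocyte markers, and 6 of 13 granulocyte markers, of which 1 was lower. All 22 G2/M genes were lower, and the part of these cells in the list counts was not tested. Regulators that act upstream of Id genes gave 2 higher and 0 lower of 9 measured, with a median of 0.41. These were Egr1, an early response factor (2.77-fold, 2.38 to 3.23), at 30.8 CPM in Flt3- Ly6d- HSA- and 11.1 CPM in Flt3+ Ly6d- HSA- cells, and the TGF-beta receptor Tgfbr2 (1.63-fold, 1.41 to 1.89). Of 14 measured T-lineage genes listed as E protein targets, 3 were higher and 2 lower (median 0.00). Higher were the cell cycle inhibitor Cdkn1a (2.58-fold) and the cytokine signalling inhibitor Socs3 (2.48-fold), and lower were the recombinase gene Rag2 (2.64-fold) and the terminal transferase gene Dntt (1.70-fold). Among partners and cofactors of E proteins, Cbfa2t3, a corepressor, was the 1 called of 7 measured (1.52-fold higher).

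Of the Flt3+ sorts, the HSA+ one was next set against the HSA- one. No member was called, where 2.05% of 9066 measured genes were called higher and 0.75% lower. Id2 had a ratio of 1.29 (1.14 to 1.47), at 22.6 CPM in Flt3+ HSA+ and 17.5 CPM in Flt3+ Ly6d- HSA- cells. Tcf3 had a ratio of 1.08 (1.03 to 1.14), Tcf4 of 0.977 (0.924 to 1.03) and Tcf12 of 0.988 (0.903 to 1.08). Of 7 partners and cofactors, 13 T-lineage targets and 9 upstream regulators measured, 0 were called in either direction. Of 5 innate lymphoid genes Klrd1, a chain of NK receptors, was called, 1.78-fold lower in Flt3+ HSA+ cells. Of other lists, 4 of 7 dendritic markers were higher and 2 lower, and 20 of 22 G2/M genes were higher. Mitotic cells were 51.0% of Flt3+ HSA+ and 26.3% of Flt3+ Ly6d- HSA- cells. Among the cells that were not mitotic the Id2 ratio was 1.24.

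Of the Flt3- sorts, the Ly6d+ one was set against the one negative for Ly6d and HSA. Ly6d is a surface antigen of lymphoid progenitors. No member was called, where 1.75% of 9178 measured genes were called higher and 2.47% lower. Tcf3 had a ratio of 1.20 (1.11 to 1.30), Tcf12 of 1.13 (1.001 to 1.26), Tcf4 of 1.11 (1.03 to 1.20) and Id2 of 1.10 (0.943 to 1.28). Outside the granulocyte class, which held 0 cells of the Flt3- Ly6d+ and 20.2% of the UMIs of the Flt3- Ly6d- HSA- sort, Tcf4 stood at 112 CPM in Flt3- Ly6d+ and 116 CPM in Flt3- Ly6d- HSA- cells, and Tcf12 at 50.6 and 51.2 CPM in the same order, while Id2 stood at 29.8 and 33.4 CPM, so the directions of Tcf4, Tcf12 and Id2 turned round. Id1 had 2 UMIs in Flt3- Ly6d+ and 43 UMIs in Flt3- Ly6d- HSA- cells, a ratio of 0.0614 (0.00721 to 0.236), and 33 of the 43 were in the granulocyte class.

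T-lineage targets of E proteins were called higher in 5 of 14 measured cases and lower in 0 in that comparison, with a median log2 ratio of 0.35 against 0.02 for all genes. The highest ratio was that of Il7r, the interleukin 7 receptor (2.09-fold, 1.75 to 2.51), at 29.6 CPM in Flt3- Ly6d+ and 14.1 CPM in Flt3- Ly6d- HSA- cells. The lowest of the 5 was that of Socs3 (1.64-fold). Lmo2, a bridging factor that joins E protein dimers to other factors, was 2.16-fold (1.97 to 2.36) lower, at 62.9 CPM in Flt3- Ly6d+ and 136 CPM in Flt3- Ly6d- HSA- cells, the 1 called of 7 partners and cofactors. Egr1 was 1.85-fold lower, the 1 called of 10 upstream regulators, and Gzmb 1.58-fold lower, the 1 called of 7 innate lymphoid genes. Moving with them were granulocyte markers (12 of 12 measured lower), mast cell and basophil markers (3 of 4 lower), erythroid and megakaryocyte markers (2 of 2 higher) and G2/M genes (11 of 22 higher), and their part was not tested.

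Next, Flt3- Ly6d+ cells were set against Flt3+ HSA+ cells. No member was called, where 8.3% of 9236 measured genes were called higher and 7.31% lower. Id2 had a ratio of 1.32 (1.15 to 1.52), Tcf12 of 1.31 (1.18 to 1.46), Tcf4 of 1.12 (1.05 to 1.20) and Tcf3 of 1.05 (0.984 to 1.13). Of 14 measured T-lineage targets 6 were higher and 0 lower (median 0.51), from Socs3 (5.68-fold) to Gata3, a T-lineage regulator (1.62-fold). Among the 7 partners and cofactors Cbfa2t3 was 1.77-fold higher and Lmo1 1.70-fold lower. Upstream regulators gave 3 higher and 0 lower of 10 (median 0.44), from the TGF-beta receptor Tgfbr1 (1.72-fold) to Smad6, an inhibitor of BMP signals (1.57-fold). Innate lymphoid genes gave 4 higher and 0 lower of 7 (median 0.67), from Gzmb (10.95-fold) to Tox (1.59-fold). In the same comparison 10 of 12 granulocyte markers were lower (median log2 ratio -5.91), 5 of 8 dendritic markers were lower and 2 higher, both measured erythroid and megakaryocyte markers were higher, and so was Cpa3 (6.40-fold). Mitotic cells were 9.08% of Flt3- Ly6d+ and 51.0% of Flt3+ HSA+ cells. The part of these cells in the list counts was not tested.

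The last comparison between sorts set the mean of the 4 gated sorts against the control. Tcf12 was 1.91-fold (1.82 to 2.004) lower in the gated sorts, at a mean of 43.2 CPM against 82.7 CPM in the control, and it was the single member called. Of 9206 measured genes 3.49% were called higher and 3.57% lower, and 1.59% had a ratio as low as that of Tcf12. Id2, at 24.2 CPM in the gated sorts and 16.2 CPM in the control, had a ratio of 1.49 (1.38 to 1.62) and so lay just under the fold of the call. It was past it outside the granulocyte class (1.58) and lay at 1.30 without mitotic cells. Tcf3 had a ratio of 0.826 (0.799 to 0.854) and Tcf4 of 1.16 (1.11 to 1.20). Id3, at 1.46 CPM in the gated sorts and 3.99 CPM in the control, had a ratio of 0.367 (0.293 to 0.460).

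Of 20 measured T-lineage targets of E proteins, 14 were lower in the gated sorts and 0 higher, with a median log2 ratio of -0.92 against -0.03 for all genes. Some of the 20 passed the floor of 5 CPM only through the control, such as Cd3e (0.211 CPM in the gated sorts and 29.0 CPM in the control). The count and the median are thus partly set by the floor. Unlike the control, the gated sorts left out CD25+ and Bcl11b+ cells, and the part of that gate in these counts was not tested. Genes of the receptor complex were the farthest apart: Cd3g, a chain of that complex, was 330.0-fold (235 to 464) lower, at 0.585 CPM in the gated sorts and 193 CPM in the control. Rag2 was the least so of the 14 (1.56-fold lower). Among 7 measured partners and cofactors Lmo2 (2.62-fold, 2.50 to 2.74) and Lmo1 (1.80-fold, 1.67 to 1.94) were higher in the gated sorts. Upstream regulators gave 2 higher of 9, the nuclear receptor Nr4a1 (1.95-fold) and the TGF-beta signalling inhibitor Smad7 (1.58-fold). Innate lymphoid genes gave 3 higher and 1 lower of 6, from Klrd1 (3.27-fold higher) to Gzmb (2.61-fold lower). With them all 13 measured granulocyte markers were higher, both erythroid and megakaryocyte markers lower, and of 4 mast cell and basophil markers 1 was higher and 1 lower, with their part not tested. Of 8 listed B-lineage targets, Cd79b, a chain of the B cell receptor, was the 1 measured in each of the 5 comparisons between sorts, and it was called in none.

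The control could be followed through its own stages. Its cells were classed by detected RNA of Il2ra (CD25), Bcl11b and Cd3g, genes that come on in that order as thymocytes commit: 1112 cells without Il2ra or Bcl11b, 766 with Il2ra without Bcl11b, 835 with Bcl11b without Cd3g, and 589 with Bcl11b and Cd3g. The classes rest on detected RNA and so on depth, with median depths of 13814, 15494, 18333 and 15985 UMIs per cell. They are not sorted populations, and their cells are those of the control used above.

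Over these classes the E proteins parted. Tcf12 stood at 45.3 CPM (42.2 to 48.5) without Il2ra or Bcl11b, 55.8 CPM (51.8 to 60.0) with Il2ra, 99.1 CPM (94.4 to 104) with Bcl11b and 161 CPM (153 to 170) with Bcl11b and Cd3g. Each step up was larger than the counting error. Tcf3 stood at 106 CPM (101 to 111), 132 CPM (125 to 138), 145 CPM (139 to 151) and 144 CPM (136 to 152) in the same order, so its last 2 classes overlapped. Tcf4 stood at 98.8 CPM (94.3 to 103), 90.6 CPM (85.5 to 95.9), 83.3 CPM (78.9 to 87.8) and 80.6 CPM (75.0 to 86.4), lower at each step, with neighbouring classes overlapping in each case. The earliest class lay within the range of the gated sorts for Tcf3 (97.3 to 117 CPM) and Tcf12 (38.5 to 50.6 CPM), and for Tcf4 just under it (99.5 to 112 CPM).

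As shares of E protein UMIs, Tcf12 gave 18.1%, 20.1%, 30.3% and 41.8% over the classes, and Tcf4 39.6%, 32.6%, 25.5% and 20.9%. Tcf3 gave 42.3%, 47.3%, 44.2% and 37.3%. Tcf12 thus was the smallest E protein share in the earliest class and the largest in the last. Among 3000 UMIs, a Tcf12 UMI was found in 13.0%, 13.7%, 26.6% and 40% of cells, and a Tcf4 UMI in 25.6%, 23.4%, 23.5% and 25.0%.

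The Id genes parted too. Id2 stood at 22.7 CPM (20.5 to 25.0), 14.4 CPM (12.4 to 16.6), 10.6 CPM (9.08 to 12.3) and 16.2 CPM (13.8 to 18.97) over the classes in their order. Its low point was in cells with Bcl11b but no Cd3g. Id3 stood at 1.49 CPM (27 UMIs), 0.919 CPM (12 UMIs), 1.89 CPM (31 UMIs) and 16.4 CPM (158 UMIs). Id3 was near the floor of detection in the first 3 classes and as high as Id2 in the last. Few cells held much of both: in the last class the 10 cells with most Id2 held 32.1% of its UMIs, up to 15 in a single cell, and the 10 with most Id3 held 36.7%. Without the 2 cells of that class with 6 or more Id2 UMIs its Id2 level was 13.3 CPM, and without the 12 cells with 4 or more Id3 UMIs its Id3 level was 9.82 CPM, against 10.6 CPM of Id2 and 1.52 CPM of Id3 in cells with Bcl11b but no Cd3g after the same step. The cells left out were picked by the counts of the same genes. Among 3000 UMIs an Id3 UMI was found in 0.554%, 0.132%, 0.605% and 4.48% of the cells of the classes in their order. Id1 stood at 1.93, 0.306, 0.670 and 0.312 CPM, with 40 of the 46 control cells of the granulocyte class in the first of these classes.

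**Figure D3:**
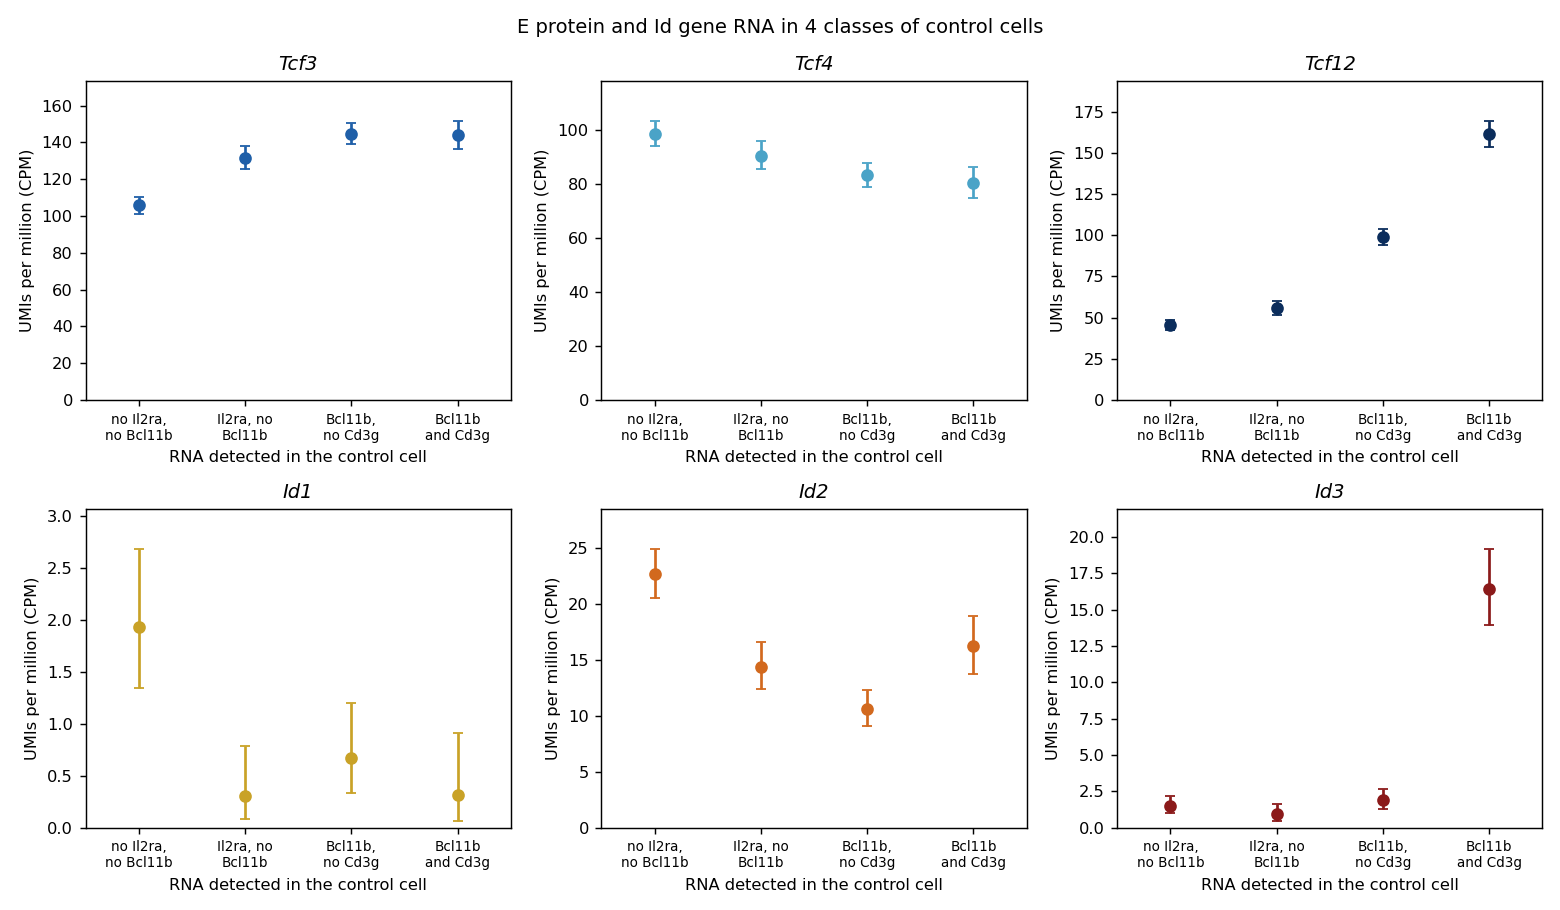
CPM of each gene in 4 classes of control cells ordered by detected Il2ra, Bcl11b and Cd3g RNA, with 95% Poisson intervals (counting error only), each panel on its own axis from 0. Tcf12 climbs to 161 CPM and Id3 to 16.4 CPM in the last class, while Id2 is lowest, at 10.6 CPM, in cells with Bcl11b without Cd3g.

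Id UMIs made up 9.46% (8.66 to 10.3), 5.32% (4.63 to 6.08), 3.86% (3.37 to 4.40) and 7.87% (7.06 to 8.74) of the UMIs of the 6 genes over the classes. E protein UMIs per Id UMI were 9.57, 17.8, 24.9 and 11.7. The make-up of the Id share changed as well: Id2 gave 86.9%, 92.2%, 80.6% and 49.2% of Id UMIs and Id3 5.72%, 5.88%, 14.4% and 49.8%. Id RNA was thus mostly Id2 in the first 3 classes and even between Id2 and Id3 in the last, where the few cells named above weigh on the split.

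The last class was set against the first, in a comparison chosen after the data were seen. Id3 was 11.01-fold (7.29 to 17.2) higher in cells with Bcl11b and Cd3g and Tcf12 3.56-fold (3.27 to 3.88) higher. Here 10.4% of 9354 measured genes were called higher and 10.3% lower, so calls were common. Of the measured genes 1.84% had a ratio as high as that of Tcf12. Id3 passed the floor of 5 CPM only through the last class, where it is high (16.4 CPM against 1.49 CPM). Its place among the measured genes is thus partly set by the floor and is not given. Tcf3 had a ratio of 1.36 (1.27 to 1.46), Tcf4 of 0.815 (0.748 to 0.887) and Id2 of 0.716 (0.591 to 0.863), none of them called. Without mitotic cells, which were 38.4% of the last class and 26.5% of the first, the Id2 ratio was 0.942 and that of Tcf12 4.29.

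Of 20 measured T-lineage targets of E proteins, 16 were higher in the last class and 0 lower, with a median log2 ratio of 1.77 against 0.05 for all genes. Cd3g, which defines the class, is among the 16. Some of the 20 passed the floor of 5 CPM only through the last class, such as Cd3e (0.774 CPM in the first class and 165 CPM in the last). Such genes could not be called lower, so the count and the median are partly set by the floor. The pre-T-cell receptor gene Ptcra had 742 UMIs in the last class and 3 in the first, and Gfi1, a transcriptional repressor, had the lowest ratio of the 16 (1.87-fold). Partners and cofactors went the other way, with 4 lower and 0 higher of 7 measured. They were Lmo2 (23.1-fold, 16.9 to 32.5), at 4.16 CPM in the last class and 96.2 CPM in the first, the helix-loop-helix partner Tal1 (4.28-fold), Lmo1 (3.15-fold) and Lyl1, another helix-loop-helix partner (1.75-fold). Of 9 upstream regulators 6 were lower and 0 higher, from Nr4a1 (3.59-fold) to Smad1, a mediator of BMP signals (1.64-fold). Of 5 innate lymphoid genes 4 were lower, from Gzmb (23.1-fold) to Nkg7, a granule protein (1.53-fold). Markers of other cell types were lower too: 12 of 12 measured granulocyte markers (median log2 ratio -4.28), 5 of 7 dendritic markers, of which 1 was higher, and 3 of 4 mast cell and basophil markers (median -4.16), among them Mcpt8, a basophil protease (22.3-fold), and Cma1 (0 UMIs in the last class and 245 in the first). Cpa3 was 3.79-fold higher and 20 of 22 G2/M genes were higher, and the part of these cells was not tested. Of 2 measured B-lineage targets, the surrogate light chain gene Vpreb1 was called higher, 2.68-fold, at 6.96 CPM in the last class and 2.60 CPM in the first.

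Within control cells with Bcl11b RNA, the amount of Cd3g RNA gave a finer order, in 6 bins of 0, 1, 2 to 4, 5 to 9, 10 to 19 and 20 or more Cd3g UMIs per cell (835, 107, 75, 71, 115 and 221 cells). The bins were chosen after the data were seen. Tcf12 stood at 99.1, 117, 124, 155, 179 and 210 CPM in them. Tcf12 was higher in every bin than in the one before, though neighbouring intervals overlapped for every pair. Id3 stood at 1.89, 3.14, 7.32, 15.2, 16.8 and 32.5 CPM, again higher in every bin, with neighbouring intervals apart for the last pair alone. Id2 stood at 10.6, 14.3, 8.54, 8.78, 19.2 and 23.7 CPM, with no order over the first 4 bins. Tcf3 stayed within 135 to 155 CPM and Tcf4 within 74.8 to 89.4 CPM. The Id share of the 6 genes was 3.86% (3.37 to 4.40) in cells without Cd3g and 11.6% (9.92 to 13.4) in those with 20 or more UMIs of it. A few cells held much of the Id UMIs. In the bin of 20 or more, the 10 cells with most held 52.2% of Id2 and 56.5% of Id3 UMIs. In the bin of 0 these shares were 20.7% and 64.5%. In the bin of 1 a single cell held 13 of 32 Id2 UMIs. The part of these cells in the Id levels and share was not tested. Median depth was 18333, 19879, 21577, 18348, 12165 and 7996 UMIs per cell, so the cells with most Cd3g were the shallowest. The part of depth or cell size in these levels was not tested.

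**Figure D4:**
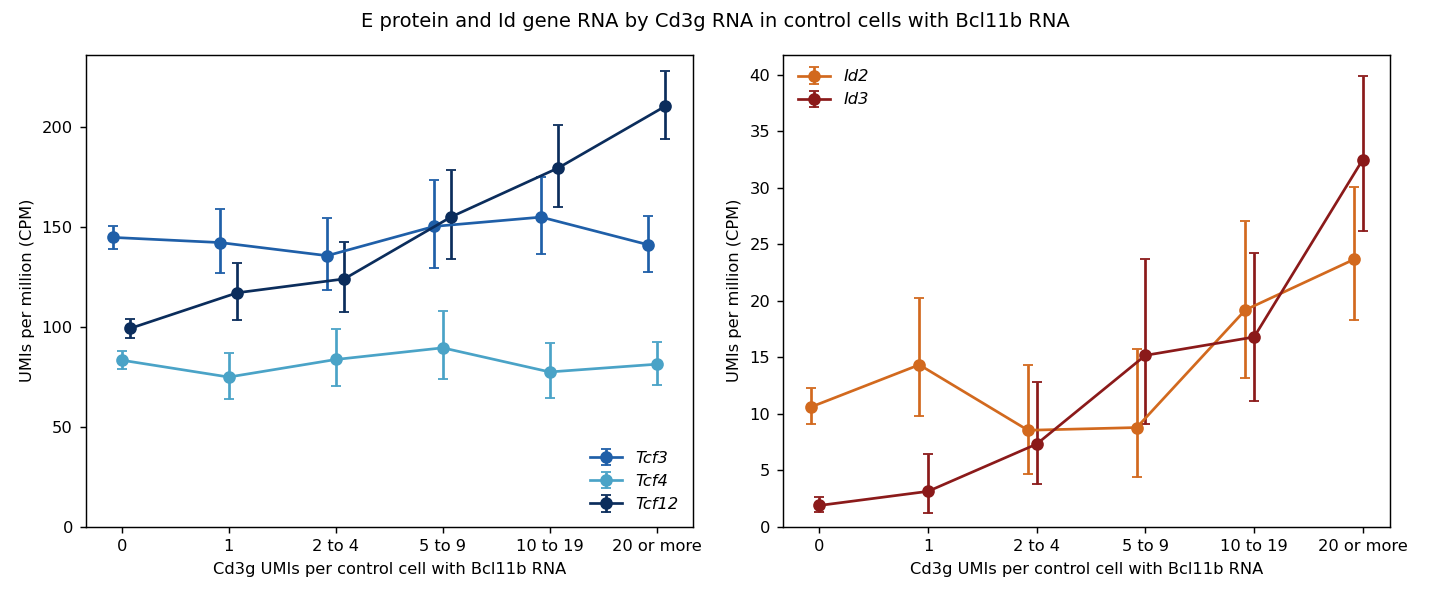
CPM of E protein genes (left) and of Id2 and Id3 (right) in control cells with Bcl11b RNA, by Cd3g UMIs per cell, with 95% Poisson intervals (counting error only). Tcf12 runs over 99.1 to 210 CPM and Id3 over 1.89 to 32.5 CPM, while Tcf3 and Tcf4 stay within 135 to 155 and 74.8 to 89.4 CPM.

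Summed over the populations, Id1 RNA lay mostly in the granulocyte class. The granulocyte class, 239 of 7948 assigned cells with a median of 34556 UMIs, held 61.6% of all Id1 UMIs, against 2.55% of those of Id2, 0.283% of Id3, 3.85% of Tcf3, 2.37% of Tcf4 and 2.23% of Tcf12. Id1 stood at 14.7 CPM (12.2 to 17.5) inside the class and 0.631 CPM (0.499 to 0.788) outside it, and Tcf4 at 35.5 CPM inside and 101 CPM outside. Tcf3 stood at 69.3 and 119 CPM, Tcf12 at 20.5 and 62.0 CPM, Id2 at 7.85 and 20.8 CPM and Id3 at 0.117 and 2.85 CPM in the same order. As a share of all UMIs, all but Id1 were thus lower in the granulocyte class. Its cells were deeper, and per cell the directions were mixed. In Flt3- Ly6d- HSA- cells Tcf3 had 2.21 UMIs per cell inside and 1.03 outside, and Tcf12 0.57 and 0.519. Tcf4 had 1.11 and 1.17, Id2 0.06 and 0.338, and Id3 0 and 0.0136. In Flt3+ HSA+ cells Id2 stood at 20.2 CPM (13.4 to 29.2) inside and 22.7 CPM (20.8 to 24.7) outside. Of 11 cells with 3 or more Id1 UMIs 10 were in the class. By population, the class held 45.3% of the Id1 UMIs of the control and 0 of the 2 in Flt3- Ly6d+ cells. It held 76.7% in Flt3- Ly6d- HSA-, 70.5% in Flt3+ HSA+ and 60.7% in Flt3+ Ly6d- HSA- cells. Markers were counted at full depth, so deep cells enter the class more easily. Whether its cells are of another type or doublets was not tested. Outside the class, Id1 was found in 0.118% of Flt3- Ly6d+, 0.814% of Flt3- Ly6d- HSA-, 1.04% of Flt3+ HSA+ and 1.48% of Flt3+ Ly6d- HSA- cells and 0.891% of control cells at full depth.

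As a share of all UMIs, Id2 was lower in mitotic than in other cells in 2 populations. In the control Id2 stood at 12.44 CPM in mitotic and 19.04 CPM in other cells, a ratio of 0.653 (0.567 to 0.751). In Flt3- Ly6d- HSA- cells it stood at 8.22 CPM (11 UMIs) and 29.0 CPM, a ratio of 0.284 (0.140 to 0.513). Mitotic cells were deeper, and per cell the control held 0.323 Id2 UMIs in mitotic and 0.271 in other cells, the opposite direction, while Flt3- Ly6d- HSA- cells held 0.167 and 0.335. In the other 3 sorts its ratio of CPM was 0.932 to 1.03, with intervals that include 1. Tcf4 had a ratio of 0.762 (0.630 to 0.915) in Flt3- Ly6d+, 0.773 (0.628 to 0.942) in Flt3- Ly6d- HSA- and 0.900 (0.851 to 0.952) in control cells, and of 1.04 and 0.952 in Flt3+ HSA+ and Flt3+ Ly6d- HSA- cells. Per cell, Tcf4 went the opposite way where its ratio was below 1 with an interval that excludes 1. It had 1.73 UMIs in mitotic and 1.40 in other cells of Flt3- Ly6d+. In Flt3- Ly6d- HSA- it had 1.61 and 1.18, and in the control 2.18 and 1.33. Tcf3 had ratios of 0.923 to 1.07 over the 5 populations, each with an interval that includes 1. Tcf12 had a ratio of 0.733 (0.529 to 0.994) in Flt3- Ly6d- HSA- cells and of 0.896 to 1.02 in the other 4 populations, with intervals that include 1. Id1 had a ratio of 2.15 (1.26 to 3.70) in Flt3+ Ly6d- HSA- cells, with 34 UMIs in mitotic and 27 in other cells.

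Per cell, E protein RNA was seen alone far more often than with Id RNA. With every cell at 10000 UMIs, which left out 309 of the Flt3- Ly6d+, 613 of the Flt3- Ly6d- HSA-, 71 of the Flt3+ HSA+, 200 of the Flt3+ Ly6d- HSA- and 730 of the control cells, E protein UMIs without Id UMIs were found in 72.5% to 76.0% of gated cells and 79.7% of control cells. Both kinds were found in 19.5%, 15.9%, 18.0% and 14.7% of the cells of the gated sorts in the listed order, and in 13.9% of control cells. Id UMIs without E protein UMIs were found in 0.558% to 1.89% of gated cells and 1.01% of control cells. Among control classes, both kinds were found in 16.9%, 11.97%, 9.97% and 18.9% of cells, and all 3 E proteins together in 14.6%, 20%, 24.9% and 26.4%. At 3000 UMIs per cell both kinds were found in 3.35% to 5.08% of gated cells and 4.31% of control cells. These shares depend on depth, and a cell without a UMI may still hold the RNA. An Id UMI was held by 14.9% of control cells with an E protein UMI and 15.9% of those without. These shares were 20.8% and 9.38% in Flt3- Ly6d+, 18.0% and 14.5% in Flt3- Ly6d- HSA-, 19.6% and 22.6% in Flt3+ HSA+ and 16.2% and 17.7% in Flt3+ Ly6d- HSA- cells. The order thus differed between sorts, and the second share of each rests on 32 to 113 cells.

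**Figure D5:**
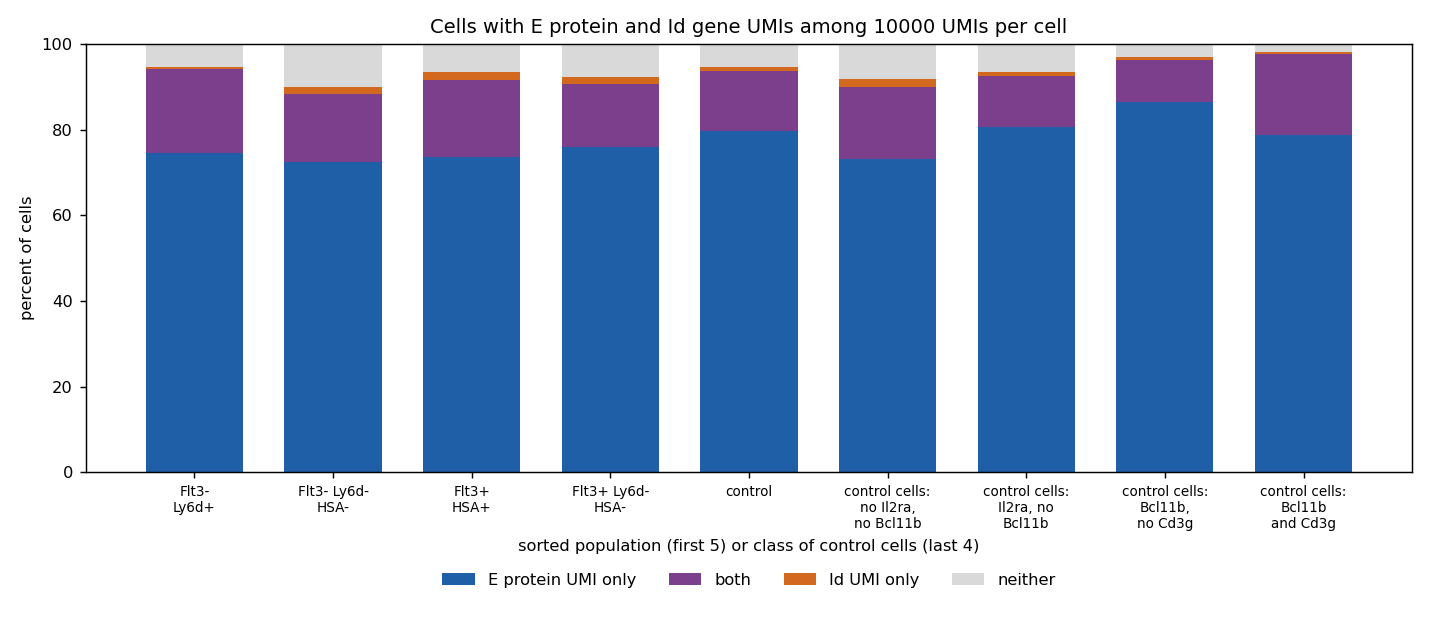
Percent of cells with E protein UMIs only, with both kinds, with Id UMIs only and with neither, after each cell was thinned to 10000 UMIs, in the 5 populations and the 4 control classes. Both kinds were found in 14.7% to 19.5% of gated and 13.9% of control cells, and in 9.97% to 18.9% over the control classes.

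The genes whose profiles were most like each member were taken over 8 groups of cells, the 4 gated sorts and the 4 control classes, among 2541 genes with at least 20 CPM in a group and a range of at least 0.5 on the log2 scale. Pearson's r was computed on log2(CPM + 1). The groups share 1 library, so r is a description. Most like Tcf12 were Ppt1 (0.997), a lysosomal thioesterase, Dnajc7 (0.996), a co-chaperone, Rac2 (0.994), a small GTPase of blood cells, and Dgcr6 (0.993). Ppt1 matched it in size too, at 37.3 to 49.5 CPM in the gated sorts and 182 CPM in control cells with Bcl11b and Cd3g. Most like Tcf3 were Ssbp3 (0.988), Dynll2 (0.982), Pdlim1 (0.982) and Abcb9 (0.980). Most like Tcf4 were P2ry14 (0.982), a nucleotide sugar receptor, Irf2 (0.981), Crem (0.978) and Sh2b3 (0.973), an adaptor that restrains cytokine signals.

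Most like Id3 was Rag1 (0.977), the recombinase gene, followed by Pag1 (0.969), Impdh1 (0.965) and Sh2d2a (0.954). Rag1 stood at 0.565 to 1.46 CPM in the gated sorts and 53.0 CPM in control cells with Bcl11b and Cd3g. Id3 stood at 16.4 CPM in that class and 0.659 to 2.60 CPM in the other groups, so its r rests mostly on that class. Most like Id2 were Camk2a (0.963), Chd2 (0.944), Wbscr27 (0.933) and Foxp1 (0.931). Most like Id1 were Anxa3 (0.993), Slpi (0.987), Ly6c2 (0.987), one of the granulocyte markers used here, and Fkbp11 (0.985). Id1 stood at only 0.188 to 3.07 CPM over the 8 groups, so its r rests on few UMIs. Among the 6 genes themselves, r was 0.854 for Tcf3 with Tcf12, -0.847 for Tcf4 with Tcf12 and -0.799 for Tcf3 with Tcf4. It was 0.819 for Tcf4 with Id2 and 0.763 for Tcf12 with Id3.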

How the data were processed

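Single-cell RNA was read from 1 cDNA library and the hashtag antibodies from a matching library, 8293 barcodes in both. The deposited matrix holds raw counts of UMIs per gene and cell, made with Cell Ranger 3.0 on mm10, per the submitters' processing notes. The authors' deposited table assigned 7948 barcodes to a population, and the other 345 were left out. In 100% of assigned cells the assigned hashtag was the highest. The sources used here do not say how cells were filtered or doublets treated. No doublet caller was run. Of the matrix's gene IDs, 27645 are in GENCODE M21.

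UMIs were summed per population and scaled by its total, 10616041 to 57199129 UMIs. Depth per cell differed between populations, so shares of cells were also computed with each cell thinned to 3000 UMIs or 10000 UMIs (seeds 31 and 32). Intervals are at 95% and cover counting error only. With 1 sort per population there was no test and no p-value. The ratio for the mean of the 4 gated sorts has a log-normal interval. The computation was tested on simulated counts. Alternatives covered scaling, cell weight, depth, filters and classes of cells left out.

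The 6 genes and the gene lists were chosen with earlier results of these data known. For each list the called genes with the largest and smallest ratios are named, at most 4 per comparison, and for each member the 4 genes of highest r. Classes of control cells in a ratio, the Cd3g bins, the 10000 UMI depth and the groups of cells with 6 or more Id2 UMIs or 4 or more Id3 UMIs were added after the data were seen. Python 3.11.15, numpy 2.4.6, pandas 2.3.3, scipy 1.17.1, edgeR 4.0.16 and DESeq2 1.42.0 (both for scaling factors only) were used.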

Additional observations from a re-analysis of the deposited data

How the results depend on the processing

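Tcf12 in the gated sorts against the control was called in all 13 settings run (log2 ratio -1.06 to -0.88), and Tcf12 and Id3 in control cells with Bcl11b and Cd3g against the earliest class in all 11 (1.75 to 2.10 and 2.99 to 3.46). Id2 in Flt3- Ly6d- HSA- against Flt3+ Ly6d- HSA- cells was called in 11 of 13 (0.33 to 1.15), Id2 in the gated sorts against the control in 5 of 13 (0.25 to 0.66), and Id3 there in 3 of 13. Of 414 ratios of members, 372 moved by less than their counting interval, 36 moved beyond it and 6 changed sign where the interval as reported excluded 1. Another 15 changed sign where it included 1, and are counted by size among the first 2 groups. The cause of each change was not tested.

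The difference in the Id share for Flt3- Ly6d- HSA- against Flt3+ Ly6d- HSA- cells was 2.91 percentage points. It was 4.9 with equal weight per cell, 5.76 with every cell at 3000 UMIs, 1.7 without cells with markers of other types and 1.19 without cells with 6 or more Id2 UMIs. For Flt3- Ly6d+ against Flt3- Ly6d- HSA- cells it was -1.51, and -3.2 and -3.62 under the first pair of settings. For the gated sorts against the control it was 3.25, and 1.83 at 3000 UMIs and 2.63 without mitotic cells. For the control classes it was -1.59, and -4.33 at 3000 UMIs.

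In Flt3- Ly6d+ against Flt3- Ly6d- HSA- cells the log2 ratio of Tcf4 turned to -0.13 at 3000 UMIs, -0.06 without the granulocyte class and -0.07 without cells with markers of other types. That of Tcf12 turned to -0.02 under each of the last 2 settings. That of Id2, 0.13 with an interval that includes no change, turned to -0.25 with equal weight per cell, -0.33 at 3000 UMIs, -0.05 without the deepest cells and -0.17 without the granulocyte class. In Flt3- Ly6d+ against Flt3+ HSA+ cells that of Id1 turned to 0.51 at 3000 UMIs. Of ratios whose interval includes no change, Id1 in Flt3- Ly6d- HSA- against Flt3+ Ly6d- HSA- cells turned under 3 settings (down to -0.50), Tcf4 there under 6 (up to 0.10), Id1 in Flt3+ HSA+ against Flt3+ Ly6d- HSA- cells without mitotic cells (0.08), and Tcf3 in Flt3- Ly6d+ against Flt3+ HSA+ cells with TMM factors (-0.01).

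The number of genes called in the 4 comparisons between gated sorts, in the order of the text, was 843, 254, 388 and 1442. It was 1474, 807, 877 and 2183 at 3000 UMIs, and 3162, 2166, 2255 and 3864 with no floor on CPM. For the gated sorts against the control it was 650, and 3553 with no floor. A filter on hashtag purity kept all cells. TMM and DESeq2 factors were not computed for control classes. No paired analysis was possible because each population was sorted a single time. Depth limits Id1 and Id3 most, with 2 to 61 and 7 to 64 UMIs in the gated sorts.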
